A study of Mus musculus with 6 samples.

Results

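The gp130 receptors and their JAK-STAT relays were examined in double-positive (DP) thymocytes, the thymic T cell precursors that carry both CD4 and CD8. The 10 genes were taken by symbol: the receptor chains Il6st, Il6ra and Il27ra, the Janus kinases Jak1, Jak2 and Tyk2, and the transcription factors Stat3, Stat4, Stat5b and Stat6. Each had 1 probe set that was paired with it alone, so all 10 were measured, of 19938 genes named on the array. Expression was profiled in C57BL/6 mice aged 3 weeks on 6 arrays. Of these 3 held RNA of wild-type (WT) mice and 3 that of mice labelled as knockouts (KO) of Hdac3, which encodes the deacetylase of the NCoR and SMRT corepressors. The series' design text describes pools of RNA from 2 mice of each genotype and counts 3 biological replicates. It does not assign mice to arrays, so the spread between arrays that underlies the p-values may be technical in part. The KO strain is named after Lck and Hdac3, and the sources used here do not say what drives the deletion, which part of the gene is deleted or which alleles the WT mice carry.

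Cytokines of the interleukin-6 family signal through gp130, the chain encoded by Il6st, which pairs with a chain specific to the cytokine: Il6ra binds interleukin-6 and Il27ra is the partner for interleukin-27. JAKs bound to the receptor tails phosphorylate one another and the receptor, STATs dock on the phosphorylated tails, are phosphorylated in turn, pair up and enter the nucleus, where they bind palindromic sites of the form TTCNNNGAA. SOCS proteins close the circuit by restraining receptors and JAKs, and DP thymocytes are known for weak responses to several cytokines that use JAKs.

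The promoters of Il6st, Jak2 and Stat4 are printed because these were the members that passed the test. They come from RefSeq on GRCm38.p6, all on the plus strand, and stop at the base before the annotated start of the gene. Stat4 has 2 promoter windows, of which the first is printed up to that base. The second, chr1:52007990-52008239, lies past the annotated start. It is 44% G and C and holds neither CCAAT nor GGGCGG. Capitals mark CCAAT and GGGCGG, sought on both strands.
Il6st, chr13:112463820-112464069: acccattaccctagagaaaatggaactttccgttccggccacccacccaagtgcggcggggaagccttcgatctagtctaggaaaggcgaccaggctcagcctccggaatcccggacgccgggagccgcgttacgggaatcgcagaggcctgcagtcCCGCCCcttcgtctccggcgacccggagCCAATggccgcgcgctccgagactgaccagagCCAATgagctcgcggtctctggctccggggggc
Jak2, chr19:29251553-29251802: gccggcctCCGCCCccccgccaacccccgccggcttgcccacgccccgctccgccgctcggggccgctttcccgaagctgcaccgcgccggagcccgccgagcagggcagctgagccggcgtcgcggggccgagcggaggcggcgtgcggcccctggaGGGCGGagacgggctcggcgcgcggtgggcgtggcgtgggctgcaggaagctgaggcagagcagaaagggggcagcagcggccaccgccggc
Stat4, chr1:51986898-51987105: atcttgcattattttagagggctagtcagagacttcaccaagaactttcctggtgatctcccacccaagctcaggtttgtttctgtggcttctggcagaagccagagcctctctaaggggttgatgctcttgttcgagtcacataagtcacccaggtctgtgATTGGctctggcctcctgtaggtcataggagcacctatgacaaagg
The Il6st stretch is 66% G and C and holds CCAAT 2 times and GGGCGG once, read on the opposite strand. That of Jak2 is 80.8% G and C, with GGGCGG 2 times and no CCAAT. That of Stat4 is 49.5% G and C and holds CCAAT once, on the opposite strand, and no GGGCGG. The median over 32851 promoter windows of 250 bases was 52.4% G and C. RefSeq promoters were matched for 9 of the 10 members, 11 windows in all with 2 each for Stat4 and Stat5b, of which 5 held CCAAT and 6 held GGGCGG. Unlike the printed stretches, the counted windows were not cut at the gene start. Both Stat5b windows and the second Stat4 window lie inside the annotated gene. Those of Jak1, Tyk2, Stat3 and Stat6 and the first of Stat4 run into it. Among all windows 33.8% held CCAAT and 32.7% held GGGCGG. The STAT form TTCNNNGAA, which reads alike on both strands, occurred in 0 of the 11 windows and in 7.02% of all windows. The same form with 1 further spacer base, which STAT6 favours, occurred in 0 of the 11 and in 5.85% of all. TATAAA occurred in 0 of the 11 and in 12.4% of all. A match is a run of letters and was not tested for binding, and the letters were chosen after the expression values were known.

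Il6st and Jak2 were lower and Stat4 was higher in KO thymocytes, and the other 7 members did not pass the test. The threshold was 0.05 on the Benjamini-Hochberg adjusted p (limma, adjusted over the whole table). The calls were thus 1 of 10 higher and 2 of 10 lower. The members were chosen with earlier results of these data known, so this count is a description. Across the 23410 probe sets tested, 5.79% were called, 1.75% higher and 4.04% lower. All 10 members had signals above the median of these probe sets. Shares were also taken in 10 bins of equal size by signal. They were 5.34% in the bin of Il6st, 7.65% in that of Jak2 and 10.9% in that of Stat4. Over the bins of all members they ran from 5.34% to 12.8%. The members' log2 differences (KO minus WT) ran from -0.82 to 0.73 with a median of -0.08, against a median of 0.02 for all probe sets. The genotypes did not overlap for 6 members, 2 higher and 4 lower in KO, where 30.0% of all probe sets did not overlap (13.5% higher, 16.5% lower). Whether the change of one member differed from that of another was not tested.

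**Figure D1:**
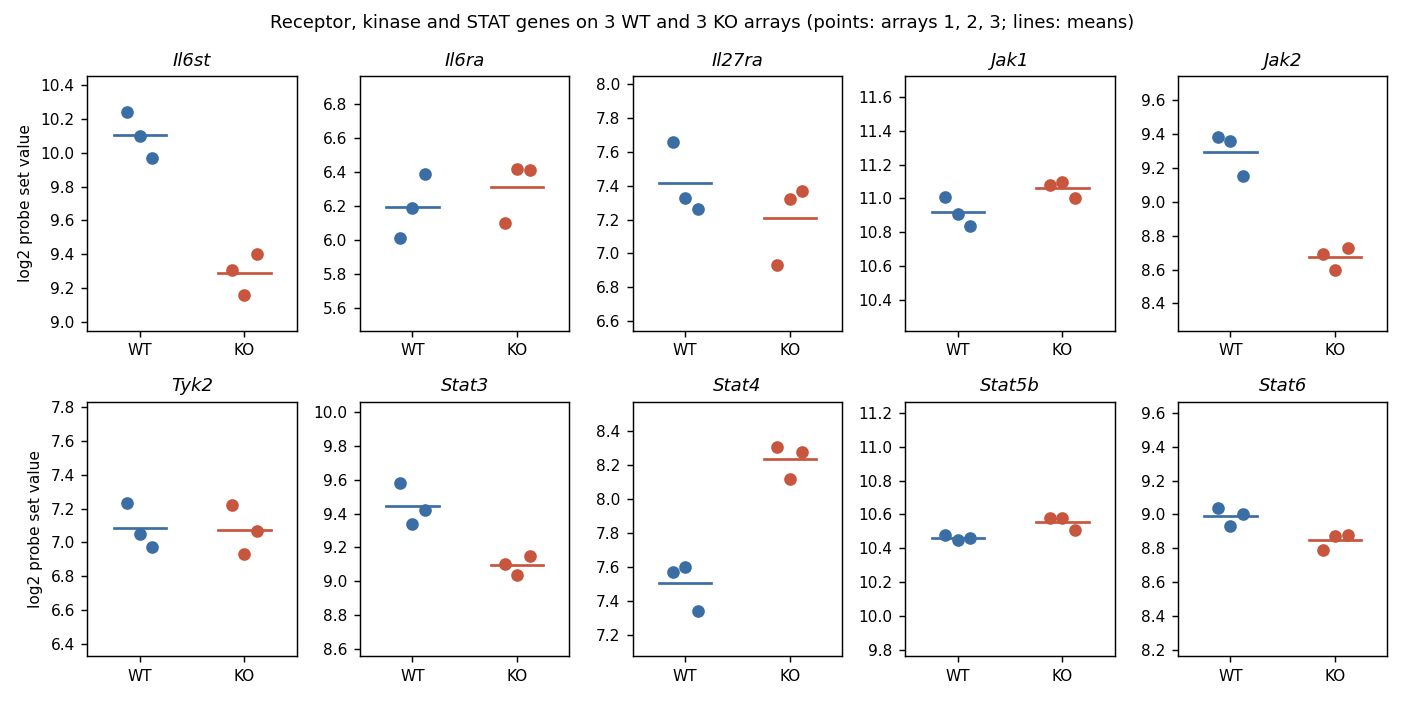
Log2 probe set values of the 10 genes, with WT arrays in blue, KO arrays in red, arrays 1 to 3 from left to right within a genotype and the mean as a line. Every panel spans the same range on the log2 scale, each around its own level. The genotypes stand apart for Il6st, Jak2, Stat4 and Stat3, lie close together without overlap for Stat5b and Stat6, and overlap for the other 4.

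Among the receptor chains the shared one changed. WT arrays 1 to 3 gave Il6st log2 values of 10.24, 10.10 and 9.97, and KO arrays 1 to 3 gave 9.31, 9.16 and 9.40. Every KO array lay below every WT array, with 0.58 between the lowest WT and the highest KO value. Il6st fell by 0.82 (SE 0.11, 95% interval -1.06 to -0.58, limma adjusted p = 0.0035), to 56.8% of its level in WT (95% interval 48.1% to 67.1%). In bulk RNA, fewer cells that carry a transcript and less of it per cell cannot be told apart.

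The cytokine-specific chains did not pass. Il6ra, the interleukin-6 binding chain, read 6.01, 6.19 and 6.39 in WT and 6.10, 6.42 and 6.41 in KO. The genotypes overlapped, and the difference was 0.11 (95% interval -0.17 to 0.40, limma adjusted p = 0.6). Il27ra read 7.66, 7.33 and 7.26 in WT and 6.93, 7.32 and 7.37 in KO. KO array 1 was its lowest array and the other KO arrays lay within the WT range, with a difference of -0.21 (95% interval -0.54 to 0.11, limma adjusted p = 0.38). These intervals leave room for a rise or a fall of either gene.

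Of the kinases, which all can associate with gp130, Jak2 was the one to pass. Jak2 read 9.38, 9.36 and 9.15 in WT and 8.69, 8.60 and 8.73 in KO. All KO values lay below all WT values, 0.42 apart at the nearest. Jak2 fell by 0.62 (SE 0.10, 95% interval -0.84 to -0.40, limma adjusted p = 0.0091), to 65% of its level in WT (95% interval 55.7% to 75.8%). Jak1, the kinase that most gp130 and common gamma chain cytokines require, read 11.01, 10.91 and 10.84 in WT and 11.08, 11.10 and 11.00 in KO. The highest WT value lay inside the KO range, and the difference of 0.14 did not pass (95% interval -0.06 to 0.35, limma adjusted p = 0.35). Tyk2, a kinase of interferon and interleukin-12 receptors, read 7.23, 7.05 and 6.97 in WT and 7.22, 6.93 and 7.07 in KO. The means differed by -0.01 (95% interval -0.26 to 0.24, limma adjusted p = 0.96), and the sign turned after quantile normalization (0.10), so Tyk2 has no settled direction.

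Of the STATs, Stat4 was the one to pass. This factor, which interleukin-12 activates, read 7.57, 7.60 and 7.34 in WT and 8.31, 8.12 and 8.28 in KO. The lowest KO value lay 0.51 above the highest WT value. Stat4 rose by 0.73 (SE 0.11, 95% interval 0.49 to 0.97, limma adjusted p = 0.0056), to 166% of its level in WT (95% interval 141% to 196%).

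Stat3, the main STAT downstream of gp130, read 9.58, 9.34 and 9.42 in WT and 9.10, 9.04 and 9.15 in KO. The genotypes did not overlap, by a margin of 0.19. The difference of -0.35 did not pass (SE 0.10, 95% interval -0.56 to -0.13, limma adjusted p = 0.066), and the KO signal was 78.6% of that in WT. Stat3 was called after median centring (-0.45, limma adjusted p = 0.034), when dim probe sets were left out (limma adjusted p = 0.035) and in a fit with a robust, intensity-dependent prior (limma adjusted p = 0.024). It was not called in any of the 6 fits that left out 1 array, where the difference ran from -0.40 to -0.28.

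The smallest differences among the 4 STAT members were those of Stat5b and Stat6. Stat5b, which common gamma chain cytokines activate, read 10.48, 10.45 and 10.46 in WT and 10.58, 10.58 and 10.51 in KO. Its values did not overlap, but the margin was 0.03 and the difference of 0.09 (95% interval -0.10 to 0.28) did not pass (limma adjusted p = 0.52); after median centring it was -0.01. Stat6, the STAT of interleukin-4, read between 8.93 and 9.04 on the 3 WT arrays and 8.79, 8.87 and 8.88 in KO. Its margin was 0.06 and its difference -0.15 (95% interval -0.34 to 0.05, limma adjusted p = 0.32). After quantile normalization the Stat6 values overlapped, with a difference of -0.03.

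In the order of RefSeq protein-coding genes Stat5b, Stat5a and Stat3 are direct neighbours on 1 chromosome. Stat5a, a close paralog of Stat5b, had a difference of 0.07 (95% interval -0.15 to 0.28, limma adjusted p = 0.7), -0.04 after median centring. None of the 3 passed the test. Cross-detection between the probes of Stat5a and Stat5b was not tested.

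**Figure D2:**
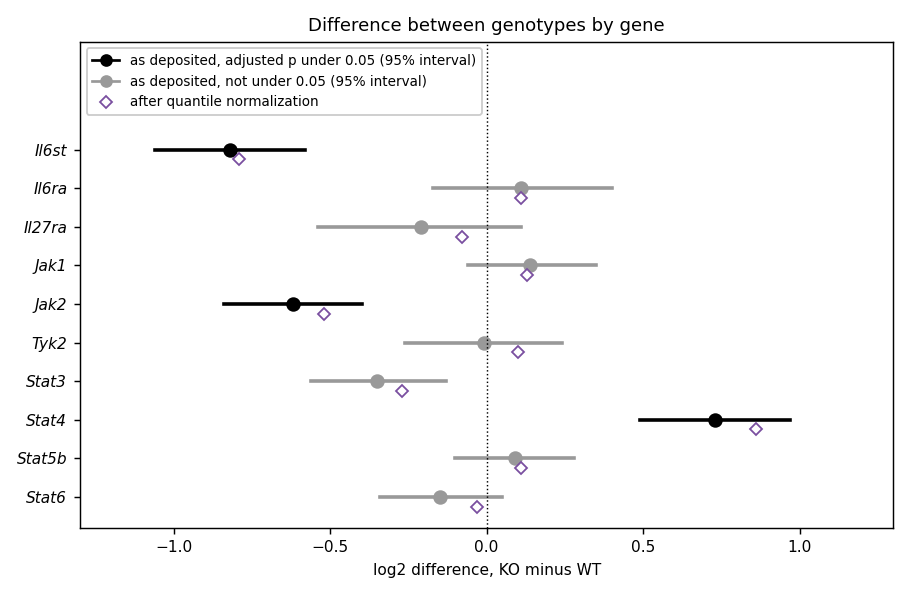
Log2 difference between KO and WT for each gene (circle) with its 95% interval, black where the adjusted p was under 0.05 and grey otherwise, and the difference after quantile normalization (open diamond). Il6st at -0.82, Jak2 at -0.62 and Stat4 at 0.73 keep their side of 0 and their call after quantile normalization, while Tyk2 crosses 0.

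Signal was compressed on the KO arrays, which had interquartile ranges of 3.06 to 3.25 against 3.29 to 3.49 on the WT arrays, so each difference is read beside that of probe sets of like signal, in 10 bins of equal size. In the bin of Il6st, Stat3, Jak1 and Stat5b the median difference was -0.04. In that of Jak2 and Stat6 it was -0.13, in that of Il27ra and Tyk2 -0.14, in that of Stat4 -0.17 and in that of Il6ra 0.05. Stat4 thus rose in a range of signal where the typical probe set was lower in KO, and the values of Stat6 and Il27ra lay near their bins' medians. After quantile normalization the differences were -0.79 for Il6st, -0.52 for Jak2 and 0.86 for Stat4, all called (limma adjusted p = 0.0033, 0.012 and 0.0017). WT array 1, with the widest spread of signal, was the highest WT array for 8 of the 10 members, and for 6 after quantile normalization.

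Markers of the labelled cell type were bright. All 10 DP markers with a probe set of their own, Cd4, Cd8a, Rag1 and Dntt among them, lay above the median signal, and 8 did not pass the test. Themis, a selection adaptor, was higher (0.43) and Cd1d1, the lipid-presenting molecule, lower (-0.65) in KO. Themis was called in 1 of the 6 fits that left out 1 array, that without WT array 1 (0.36 to 0.53). It was not called after median centring (0.33) or cyclic loess scaling (0.41). Its call was also lost with unnamed probe sets added and with the replicate number as a block (limma adjusted p = 0.057 and 0.063). Cd1d1 was called in 2 of those 6 fits, those without WT array 3 or KO array 1 (-0.73 to -0.53). Hdac3 itself read 9.40, 9.42 and 9.44 in WT and 8.28, 8.32 and 8.32 in KO (difference -1.12, limma adjusted p = 3.5e-04). A probe set can lie outside the deleted part of a gene.

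KO array 2 stood apart in neutrophil markers, whose mean over 10 genes was 5.90 there and 4.44 to 4.67 on the other 5 arrays. All 10 were highest on that array, 4 of them by more than 1 on the log2 scale and the others by less. None of the 10 passed between the genotypes. Without KO array 2 the differences were -0.75 for Il6st, -0.58 for Jak2 and 0.79 for Stat4, all called (limma adjusted p = 0.016, 0.04 and 0.014), and 0.06 for Il6ra, a receptor chain also found on neutrophils. Array means of marker lists were 4.73 to 4.90 for 7 B cell genes, 4.89 to 5.21 for 11 macrophage and dendritic cell genes, 4.35 to 4.84 for 6 erythroid genes and 5.46 to 5.72 for 10 genes of epithelium and stroma. None of the B cell or macrophage and dendritic cell genes passed, the erythroid factor Klf1 was higher (0.44) and the epithelial adhesion gene Epcam lower (-0.37). For 9 genes of mature single-positive cells the array means were 6.12 to 6.41 in WT and 6.09 to 6.29 in KO, with Il7r lower. For 10 genes of the earlier double-negative stage they were 5.77 to 6.00 and 5.94 to 6.12, with Il2ra higher and Il7r and Cd44 lower. The call of Klf1 held in 2 of the 6 fits that left out 1 array, those without WT array 3 (0.49) or KO array 1 (0.52). It was lost after quantile (0.34), median (0.33) and cyclic loess (0.32) scaling. It was also lost with unnamed probe sets added and with the replicate number as a block. The call of Epcam held in none of those 6 fits (-0.41 to -0.34). It was also lost with unnamed probe sets added, with the robust, intensity-dependent prior and with the replicate number as a block. The part of these lists in the members' differences was not tested.

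The other genes of the pathway were followed in 8 lists of 90 genes, of which 81 were measured. Of these 8 were higher and 6 lower in KO, or 17.3%, beside the 5.79% of all probe sets called. Several of these genes were known to be called when the lists were drawn up.

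No cytokine of the gp130 family passed: of 9 measured, all had positive differences, from 0.01 to 0.38, with a median of 0.17. The smallest p-values were those of Il27, which read 6.33 ± 0.21 in WT and 6.71 ± 0.14 in KO (SD, n = 3; difference 0.38, limma adjusted p = 0.11), and of the cardiotrophin Ctf1 (0.23, limma adjusted p = 0.17). With array weights Il27 was called (0.45, limma adjusted p = 0.046). Of the 9 genes 1 had a signal above the median of all probe sets. In the bins of like signal, with medians from 3.09 to 6.12, the median difference of all probe sets was also positive, 0.02 to 0.16.

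The receptor chains for interleukin-12 changed in opposite directions. Il12rb1, the chain shared by the interleukin-12 and interleukin-23 receptors, read 7.97, 7.73 and 7.90 in WT and 8.84, 8.88 and 8.71 in KO. It rose by 0.94 (SE 0.10, limma adjusted p = 0.0016) with no overlap. Il12rb2, the chain that carries the STAT4 docking site and completes the interleukin-12 receptor, read 6.19, 6.60 and 5.98 in WT and 5.35, 5.27 and 5.11 in KO. It fell by 1.02 (SE 0.15, limma adjusted p = 0.0067), again with no overlap. Both calls held in all 6 fits that left out 1 array. Il23r is the partner of Il12rb1 for interleukin-23 and the neighbour of Il12rb2 among RefSeq protein-coding genes. Il23r was dim (3.38 to 3.48 in WT, 3.62 to 3.73 in KO) and did not pass (0.26, limma adjusted p = 0.11). The remaining 3 of the 6 measured chains, Lifr, Osmr and Cntfr, which pair with gp130 for other cytokines, had differences from -0.05 to 0.09 and did not pass.

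Of 18 other chains that couple to JAKs, 3 were higher, 2 lower and 13 did not pass. The number called varied with the setting. It was 3 without WT array 2, 6 after quantile, median or cyclic loess scaling and 7 with array weights. Il2ra, the interleukin-2 receptor alpha chain, rose by 2.28 and Il21r, the interleukin-21 receptor, by 0.70. Il7r, the interleukin-7 receptor chain, fell by 1.19, and Il10rb, a chain shared by interleukin-10 and related cytokines, fell by 0.61 (limma adjusted p = 0.0076). The third rise was that of Ifngr1, the ligand-binding interferon gamma receptor chain (0.37), named after its value was seen. The call of Il21r was lost without WT array 2 and without KO array 3 (0.60 to 0.79 over the fits that left out 1 array). Ifngr1 was called in 1 of those 6 fits, that without WT array 3 (0.36 to 0.40). Its call was lost after median centring (0.27) and with the replicate number as a block (limma adjusted p = 0.063).

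Ifnar2, Il10rb, Ifnar1 and Ifngr2 follow one another in the order of RefSeq protein-coding genes, and their differences were -0.33, -0.61, -0.08 and 0.05. Il10rb passed and the other 3 did not, though Ifnar2 was called in 4 of the 15 alternative settings, among them median centring (-0.43, limma adjusted p = 0.041). Il4ra, the interleukin-4 receptor chain, lies next to Il21r in the same order. Il4ra had a difference of 0.40 that did not pass (limma adjusted p = 0.11) and that was called with array weights (0.50, limma adjusted p = 0.043). No difference between neighbours was tested.

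Among the inhibitors of the pathway, Socs7 was the one of 18 to pass, and in 10 of the 15 alternative settings 2 or 3 passed, among them the fits without WT array 3 and without KO array 1 (2 each). Socs7 read 8.13, 8.16 and 8.26 in WT and 7.69, 7.45 and 7.56 in KO and fell by 0.61 (SE 0.10, limma adjusted p = 0.0091), with no overlap. The list median was -0.13, and 15 of the 18 had signals above the median of all probe sets. Socs3, the inhibitor that binds gp130 itself, read 6.76, 6.59 and 7.01 in WT and 7.28, 7.14 and 7.30 in KO. Every KO value lay above every WT value, and the difference of 0.45 did not pass (SE 0.12, limma adjusted p = 0.056); it was called in 8 of 15 alternative settings, among them quantile normalization and the fit without WT array 3. Pias3, an inhibitor of activated STATs named after its values were seen, read 6.04, 5.99 and 5.96 in WT and 5.81, 5.28 and 5.35 in KO. Its difference of -0.51 did not pass (limma adjusted p = 0.059). Median centring and the fit without KO array 1 each called 2 inhibitors, and Socs3 was not among them. A gene other than Socs7 and Socs3 thus passed there, and which gene this was is not given here. Socs1 had a difference of -0.15 (limma adjusted p = 0.38).

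Genes that STATs are known to control were called in both directions. Of 17 measured genes linked to STAT3, Myc, the growth regulator, fell by 1.26 (SE 0.17, limma adjusted p = 0.0035), and the transcription factors Maf and Bcl6 rose by 0.66 and 0.61 (limma adjusted p = 0.014 and 0.012). The list median was 0.16 and 14 did not pass. With cyclic loess scaling 5 genes of this list were called. The robust, intensity-dependent prior and the array weights called 6 each. The call of Maf was lost without KO array 3 (0.55 to 0.76 over the fits that left out 1 array) and that of Bcl6 without WT array 2 and without KO array 3 (0.55 to 0.69). Of 12 genes linked to STAT5, Il2ra rose as above, the cyclins Ccnd2 and Ccnd3 differed by -0.90 and 0.40, and 9 did not pass (median 0.08). Ccnd3 was called in 1 of the 6 fits that left out 1 array, that without WT array 3 (0.37 to 0.43). It was not called after median centring (0.30) or with the replicate number as a block (limma adjusted p = 0.052).

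Of 10 genes linked to STAT4 or STAT6, Il18r1, the interleukin-18 receptor chain, read 3.57, 3.47 and 3.78 in WT and 5.47, 4.83 and 4.96 in KO. It rose by 1.48 (SE 0.16, limma adjusted p = 0.0017), from among the dimmest signals of the list. Its partner Il18rap, also its neighbour among protein-coding genes, differed by 0.17 (limma adjusted p = 0.31). Il12rb2, which is also in this list, fell as above. The list median was 0.11, with 8 genes that did not pass.

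**Figure D3:**
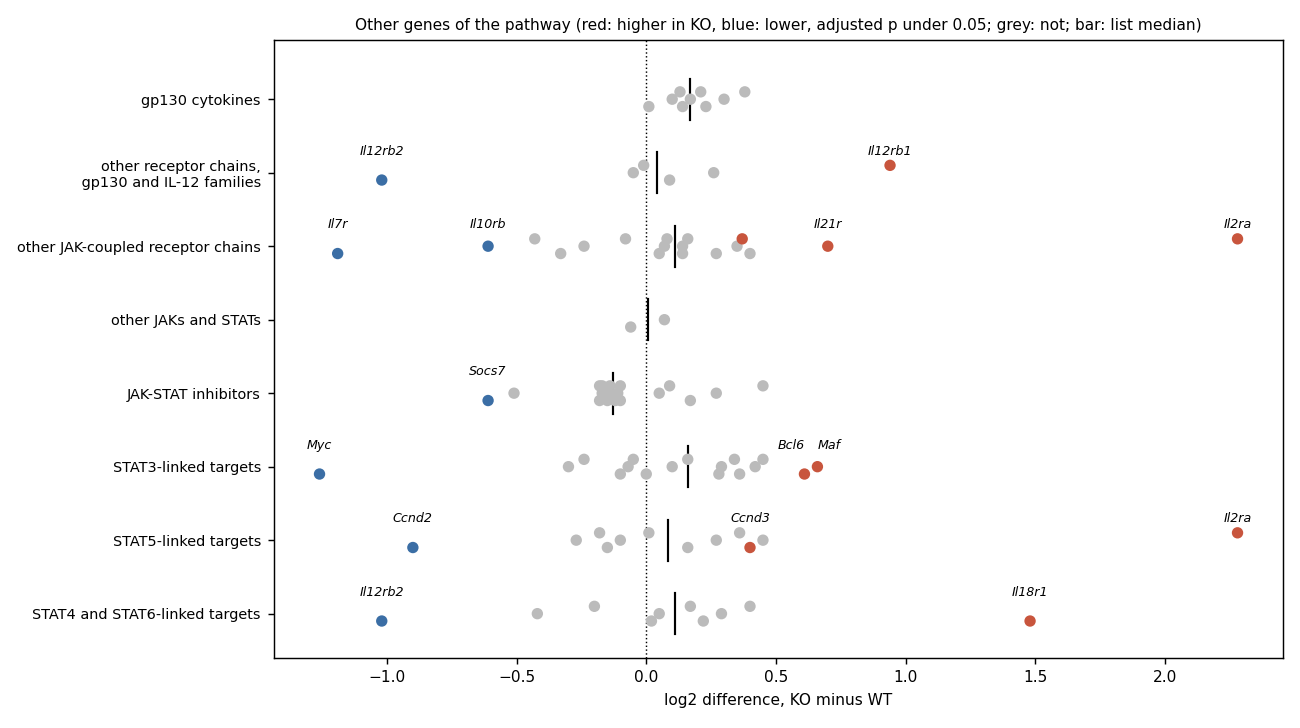
Log2 difference between KO and WT for each measured gene of the 8 lists (some genes are in more than 1 list), red where higher and blue where lower in KO at an adjusted p under 0.05, grey otherwise, with the list median as a bar. Called genes lie on both sides of 0 in 5 of the 8 lists, and the medians lie between -0.13 and 0.17.

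The genes whose 6 values, centred on each gene's mean, lay nearest to those of Il6st were Carf, Gyg, Ssbp2, Ahsa2 and Slc16a1. Their root mean square distances were 0.05 to 0.06 on the log2 scale over 6 arrays, among 9877 genes with a signal above the median. Carf encodes a calcium-response factor, Gyg the glycogen primer glycogenin, Ssbp2 a single-stranded DNA-binding protein, Ahsa2 a relative of an HSP90 activator and Slc16a1 a lactate transporter. Their differences ran from -0.87 for Gyg to -0.77 for Slc16a1, beside -0.82 for Il6st. They were chosen for this likeness, so their differences are a description.

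**Figure D4:**
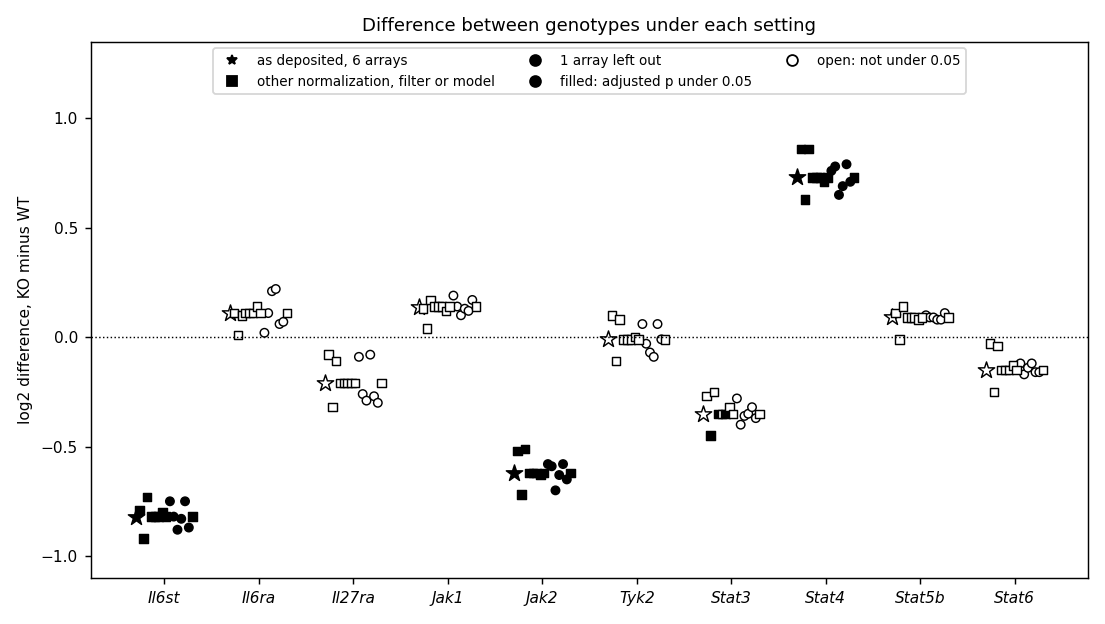
Log2 difference between KO and WT for each gene with the deposited values and all 6 arrays (star), under other normalizations, filters and models (squares) and with 1 array left out (circles), filled where the adjusted p was under 0.05. Il6st, Jak2 and Stat4 are filled under all settings, Stat3 under 3 alternatives, and the other 6 under none.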

How the data were processed

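Expression was measured on 6 Affymetrix whole-transcript arrays, and groups and replicate numbers were read from the sample titles. The deposited values are log2 probe set values made by the authors. That scale was read from their range, and the sources used here do not give the background correction, normalization or probe summary. Gene names came from the platform's annotation: of 28853, 21789 had 1 symbol, 1621 several and 5443 none. Symbols were checked by Entrez identifier against RefSeq (GRCm38.p6), with 21698 matched. No batch is named in these sources. Detection calls were not used here, so values of dim genes are uncertain.

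The 23410 probe sets with a gene were tested with limma 3.58.1 (lmFit and eBayes) in R 4.3.3, without a replicate block. P-values were two-sided and Benjamini-Hochberg adjusted over all of them, with a threshold of 0.05. The brightest probe set over 6 arrays stood for a gene. The number of arrays limits the precision, with a median SE of 0.11. An exact permutation test with 3 arrays a group has a smallest p of 0.1 and was not run.

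The members and lists were chosen with earlier results of these data known. Named genes are the members, Hdac3, up to 4 called genes with the largest change in each list (or, in a list without calls, the 2 of smallest p), and the 5 genes nearest to Il6st. Other genes were named after their values were seen. Il11ra1, Il2rg, Jak3 and some other list genes were not analysed here. Alternatives were quantile, median and cyclic loess scaling, dim probe sets left out, unnamed probe sets added, a robust prior with a trend on intensity, array weights, the replicate block, each array left out, and the average over a gene's probe sets.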

Additional observations from a re-analysis of the deposited data

How the results depend on the processing

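Il6st, Jak2 and Stat4 were called under all 15 alternatives, with differences from -0.92 to -0.73, from -0.72 to -0.51 and from 0.63 to 0.86 (limma adjusted p up to 0.018, 0.042 and 0.032). The count of members called was 3 or 4, and 3 in each fit that left out 1 array. Of 150 member values under the alternatives, 141 kept their direction and side of the threshold, 3 became called (Stat3) and 6 changed sign. The changes of sign were those of Tyk2 after quantile normalization (0.10), cyclic loess (0.08) and array weights (0.00) and without WT array 1 or KO array 2 (-0.09 to 0.06 over the fits that left out 1 array), and of Stat5b after median centring (-0.01). Outside the members, Stat2 (0.08 and 0.07) and Ifnar1 (0.04 and 0.03) changed sign after quantile and cyclic loess scaling, and Stat5a (-0.04) and Ifngr2 (-0.05) after median centring. None of these was called in either state. The 1355 calls over all probe sets became 2060 after median centring, 2285 with array weights and 474 (without KO array 2) to 1946 (without WT array 3) with 1 array left out. Higher calls were 30.2% of all calls, 9.56% after median centring, which moved the median difference from 0.02 to -0.08, and 35% after quantile normalization. The cause of these shifts was not tested.

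With the replicate number as a block 1162 probe sets and the same 3 members were called. Deviations of same-numbered arrays correlated at 0.25, -0.07 and -0.03 across probe sets, so the numbers were not taken as pairs. Counts called in the 8 lists stayed within 1.5 times of the main count, or at 0, in 101 of 120 cases. Il12rb2, Il7r, Maf, Il18r1, Il18rap, Il6, Il23r, Ctf1, Pias3, Cd44, Klf1 and Epcam were dim and have no value with dim probe sets left out. Signal over background is unknown, which limits Il6, Il23r and the other dim genes most.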
